A study of Mus musculus with 24 samples.

Results

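Transcripts of 8 genes of adrenergic, muscarinic and angiotensin signalling were followed through experimental autoimmune myocarditis (EAM) in the mouse heart. The genes were given by name: the receptors Adrb1, Adra1a, Adra1b, Chrm2 and Agtr1a, the hormone precursor Agt, the enzyme Ace and the receptor kinase Grk5. All 8 symbols were matched to 1 Ensembl identifier each, out of 41388 Ensembl genes in the count table, and all are protein-coding. Positions below are those of the whole gene in GENCODE M21 on GRCm38, the build of the counts. RNA was taken from pieces of 24 hearts of wild-type male BALB/cAnNCrl mice (Balb/c in the labels), which were 8 to 10 weeks old at immunization, with 4 EAM and 4 control hearts at D10, D15 and D21. EAM mice received 100 µg of a peptide of cardiac myosin heavy chain (MyHC-α) in supplemented complete Freund's adjuvant on days 0 and 7, with pertussis toxin on day 0. Control mice received PBS in place of the peptide and the same adjuvant and toxin, so that no group is untreated. Each library is 1 mouse, and EAM hearts were chosen, as far as possible, for evident inflammation, so that they do not stand for all immunized mice. At D10 none of the 8 leukocyte markers was called (median log2 fold change 1.41, all 8 with an unadjusted p under 0.05 in edgeR), and the D10 EAM group is not described here as inflamed.

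The heart is under opposing autonomic and hormonal control. Noradrenaline and adrenaline act on β-adrenergic receptors, which raise cyclic AMP through Gs and adenylyl cyclase, and on α1-adrenergic receptors, which act through Gq and phospholipase C. Acetylcholine from the vagus acts on the M2 muscarinic receptor, which lowers cyclic AMP through Gi and opens the potassium channel formed by Kcnj3 and Kcnj5. In the renin-angiotensin system, renin cuts angiotensinogen, ACE makes angiotensin II from the product, and the type 1 angiotensin receptor answers through Gq.

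The upstream sequences of a pair of receptor genes that fell at D15 and of Ace, which did not pass the test, are shown to set them side by side. Each is the 250 bases before a RefSeq transcription start (GRCm38.p6), 5′ to 3′ on the strand of the gene, and capitals mark matches, on either strand, to TATAAA (the TATA box), GGGCGG (the GC box), TGACG (a half-site of the cyclic AMP response element) or CATTCC (the M-CAT element of muscle genes).
Adrb1, chr19:56721867-56722116, plus strand: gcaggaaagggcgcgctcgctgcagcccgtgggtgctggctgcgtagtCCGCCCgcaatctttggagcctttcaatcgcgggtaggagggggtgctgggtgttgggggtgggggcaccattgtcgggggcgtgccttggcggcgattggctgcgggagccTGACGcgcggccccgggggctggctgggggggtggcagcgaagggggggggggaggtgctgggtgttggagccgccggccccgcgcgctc
Adra1b, outer start, chr11:43901238-43901487, minus strand: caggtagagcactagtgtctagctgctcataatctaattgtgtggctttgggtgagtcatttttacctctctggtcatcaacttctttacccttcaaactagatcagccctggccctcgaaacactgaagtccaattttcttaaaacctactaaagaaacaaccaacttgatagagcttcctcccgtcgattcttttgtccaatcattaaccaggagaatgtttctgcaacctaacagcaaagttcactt
Adra1b, inner start, chr11:43836490-43836739, minus strand: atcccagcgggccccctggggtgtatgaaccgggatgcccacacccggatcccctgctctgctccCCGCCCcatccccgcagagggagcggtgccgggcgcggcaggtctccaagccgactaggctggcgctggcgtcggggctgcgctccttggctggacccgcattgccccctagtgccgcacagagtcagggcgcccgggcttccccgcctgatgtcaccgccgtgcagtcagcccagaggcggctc
Ace, first start, chr11:105967698-105967947, plus strand: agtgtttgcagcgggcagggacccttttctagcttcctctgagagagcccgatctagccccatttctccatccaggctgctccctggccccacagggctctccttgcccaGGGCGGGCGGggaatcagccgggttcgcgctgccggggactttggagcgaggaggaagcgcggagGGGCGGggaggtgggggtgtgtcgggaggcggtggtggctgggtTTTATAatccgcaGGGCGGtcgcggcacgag
The Adrb1 window held 74.0% G and C, 1 GC box and 1 cyclic AMP half-site. The windows of Adra1b differed from each other, with 41.6% G and C and no match before the outer start and 72.8% and 1 GC box before the inner start. The Ace window held 67.2% G and C, 1 TATA box and 4 GC boxes, a pair of which overlap. A second Ace start has a window (chr11:105974939-105975188) with 58.0% G and C and no match. Of 32851 RefSeq windows of the same length, 12.4% held TATAAA, 32.7% GGGCGG, 17.8% TGACG and 12.6% CATTCC, and the median content of G and C was 52.4%. A match is a run of letters and not a measured site. RefSeq windows were at hand for 6 of the 8 genes, and those of Adra1a and Agtr1a were not analysed here. Of the windows not shown, that of Agt held 55.6% G and C and 1 TATA box, and that of Chrm2 50% and 1 GC box. The Grk5 window held 49.6% and no match. A link between these windows and the changes in EAM was not tested.

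Each library held 15814863 to 24980864 counted reads, with a median of 19469782. Levels are given as CPM, the counts of a gene per 1000000 counts of its library, after TMM scaling over all 24 libraries. A gene was called where edgeR's quasi-likelihood test of 4 against 4 hearts gave a Benjamini-Hochberg adjusted p below 0.01, over all genes tested that day, and a change of at least 2-fold. All 8 genes passed the filter on low counts on every day. Because a bulk count cannot tell fewer cells of a type from less RNA per cell, markers of the cell types were followed beside them. The 15 cardiomyocyte markers were at 54039.8 to 66301 CPM in sum in the 12 control hearts and 11 of 15 were called lower at D15 (median log2 fold change -1.33). The 8 leukocyte markers were all called higher at D15 (median 3.82) and at D21 (median 2.74). The neuron and Schwann cell markers, which stand for nerve fibres in the piece, had no called member at D15 (median -0.48, 7 of 8 tested, 3 of them lower at an adjusted p below 0.01 and under 2-fold) or D21 (median -0.59, 6 of 8 tested).

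In control hearts Chrm2, the M2 receptor, was the most abundant of the 8 genes per unit of length. Levels per length are CPM divided by the exon length in kilobases (RPKM, mean ± SD over 12 control hearts), with exon lengths from GENCODE M21. Chrm2 stood at 45.8 ± 3.87 RPKM (SD, n = 12), and its range did not meet that of Ace at 20.0 ± 3.23 (SD, n = 12). Adra1b followed at 18.8 ± 1.79 RPKM, Grk5 at 15.3 ± 1.87, Agtr1a at 13.2 ± 1.89 and Adrb1 at 11.4 ± 0.98 (SD, n = 12 each). Neighbours in the order from Ace to Adrb1 overlapped in range. Below a gap came Adra1a at 3.95 ± 0.39 RPKM and Agt at 2.88 ± 0.64 RPKM (SD, n = 12 each), whose ranges overlapped. None of the 8 genes was called between control hearts of different days, where 0.0919% of 16318 genes were called between D15 and D10, 0.214% between D21 and D10, and 0 between D21 and D15, where 387 genes had an unadjusted p under 0.05.

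**Figure D1:**
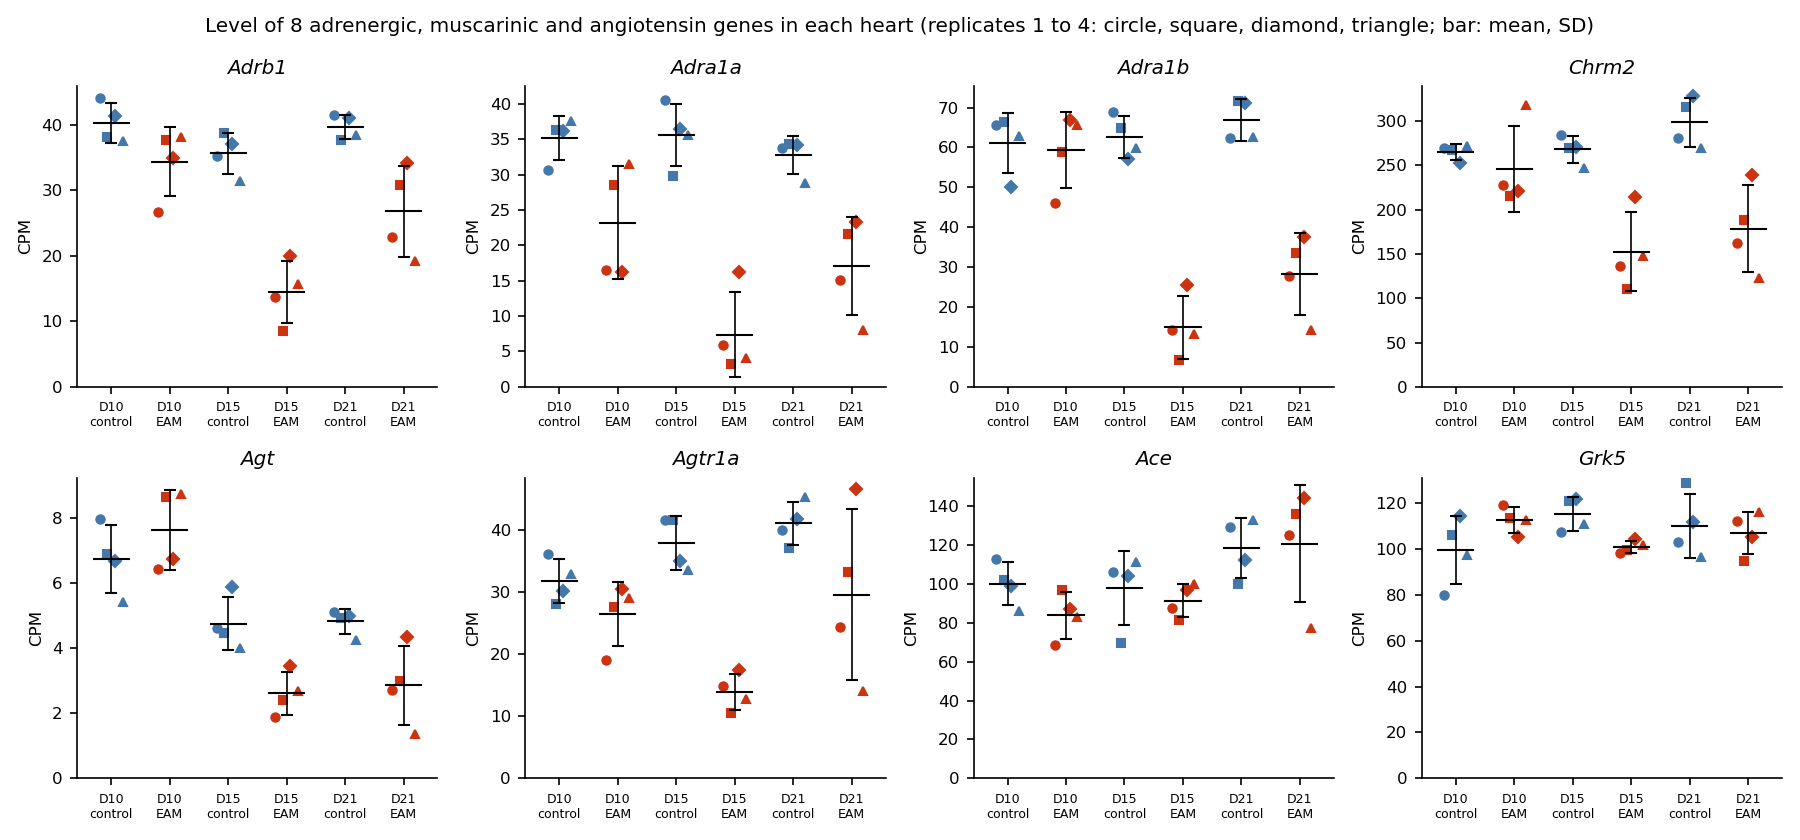
Level of each gene in each heart, in CPM on axes that start at 0, for control (blue) and EAM (red) hearts at D10, D15 and D21, with the mean and SD of each group (n = 4). At D15 the EAM hearts of Adrb1, Adra1a, Adra1b, Chrm2, Agt, Agtr1a and Grk5 all lie below the controls, while Ace overlaps.

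At D10 the level of no gene of the 8 was called different, and 0 of 15029 genes were called in either direction by edgeR. Of all genes, 2292 had an unadjusted p under 0.05 at D10, DESeq2 called 48 higher and 4 lower, and limma-voom called 0. The fitted change furthest from 0 belonged to Adra1a, the α1A-adrenergic receptor, at -0.61 ± 0.22 (log2, SE, adjusted p = 0.33 in edgeR). Its EAM hearts were at 16.5, 28.5, 16.3 and 31.6 CPM and its controls at 30.6, 36.3, 36.1 and 37.6 CPM (replicates 1 to 4). The groups overlapped through EAM replicate 4 alone. The first EAM heart at D10 was the lowest of its group for Adrb1, Adra1b, Agt, Agtr1a and Ace. In that heart the leukocyte marker sum was 1801 CPM against 323 to 667 in the other EAM hearts, and the cardiomyocyte marker sum was 34858 CPM against 53433 to 59859. No gene of the 8 had all 4 EAM hearts below all controls at D10, which 3.75% of genes tested did.

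At D15, 4 of the 8 genes were called lower and none higher with TMM scaling. They were the 3 adrenergic receptors and the angiotensin receptor, and they fell to between 21.0% and 41.5% of the control level. Of all 15693 genes tested, 12.9% were called lower and 18.1% higher. With no fold limit, 6 of the 8 were lower at an adjusted p below 0.01, as were 31.1% of all genes, and 7 of the 8 had every EAM heart below every control, as did 35.9% of all genes. The median log2 fold change of the 8 was -1.05, against 0.02 for all genes tested.

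Adrb1 (chr19:56722199-56733113, plus strand) encodes the β1-adrenergic receptor, the main β receptor of cardiac muscle. It was at 13.7, 8.51, 19.9 and 15.6 CPM in the D15 EAM hearts and at 35.2, 38.8, 37.1 and 31.4 CPM in the D15 controls. The highest EAM heart lay well under the lowest control. The change was -1.27 ± 0.21 (log2, SE, adjusted p = 0.00048 in edgeR). Under a scaling to cardiomyocyte markers, described below, it was -0.01 (adjusted p = 0.95) and not called.

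The α1-adrenergic receptors Adra1a (chr14:66635251-66771168, plus strand) and Adra1b (chr11:43774606-43901210, minus strand) fell furthest. Adra1a was at 5.95, 3.19, 16.2 and 4.13 CPM in EAM hearts and at 40.6, 29.8, 36.4 and 35.6 CPM in controls, a change of -2.25 ± 0.44 (log2, SE, adjusted p = 0.0012). EAM replicate 3 stood well above the other 3 EAM hearts, and without it the change was -2.95. Adra1b, the α1B receptor, was at 14.2, 6.62, 25.6 and 13.3 CPM against 69.0, 64.9, 57.1 and 59.8 CPM, a change of -2.04 ± 0.32 (log2, SE, adjusted p = 0.00031). The same EAM heart was the highest and EAM replicate 2 the lowest for both genes.

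Agtr1a (chr13:30336441-30382867, plus strand) encodes the main type 1 angiotensin receptor of mice. It was at 14.9, 10.4, 17.3 and 12.8 CPM in EAM hearts and at 41.6, 41.6, 34.9 and 33.4 CPM in controls, with -1.42 ± 0.15 (log2, SE, adjusted p = 2.8e-05). Among the 8 genes this change had the smallest adjusted p at D15 with TMM scaling, and under the marker scaling it was -0.12 (adjusted p = 0.63) and not called. Agt (chr8:124556534-124569706, minus strand), the precursor that renin cuts, was at 1.87, 2.42, 3.46 and 2.7 CPM against 4.64, 4.49, 5.9 and 4.0 CPM. Its change of -0.83 ± 0.20 (log2, SE, adjusted p = 0.0043) was under 2-fold and turned positive under the marker scaling. Without control replicate 3 or EAM replicate 1, 2 or 4 its adjusted p lay between 0.012 and 0.014.

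Chrm2 (chr6:36388084-36528414, plus strand) was lower in all 4 EAM hearts with TMM scaling, by less than 2-fold, and its change turned positive under the marker scaling described below. It was at 137, 110, 215 and 148 CPM in EAM hearts and at 284, 270, 271 and 247 CPM in controls, with -0.78 ± 0.18 (log2, SE, adjusted p = 0.0028). Without EAM replicate 1 or 4 the adjusted p was 0.013 or 0.012. Exons of Chrm2 overlap those of the opposite-strand long noncoding RNA 9330158H04Rik, with a median of 440 reads, and the sources used here do not give the strand setting of the counting, so that reads of the shared stretch may not be told apart.

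Ace and Grk5 were near the control level with TMM scaling and above it under the marker scaling. Ace (chr11:105967945-105989964, plus strand), which makes angiotensin II and is abundant in endothelium, was at 87.5, 81.3, 96.9 and 100 CPM in EAM hearts and at 106, 69.6, 104 and 111 CPM in controls, with -0.06 ± 0.14 (log2, SE, adjusted p = 0.72). Grk5 (chr19:60889749-61095968, plus strand), a kinase that phosphorylates agonist-occupied receptors, was at 98.1, 99.3, 104 and 102 CPM against 107, 121, 122 and 111 CPM. The Grk5 groups did not overlap, but the change of -0.16 ± 0.06 (log2, SE, adjusted p = 0.045) did not pass the limit.

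**Figure D2:**
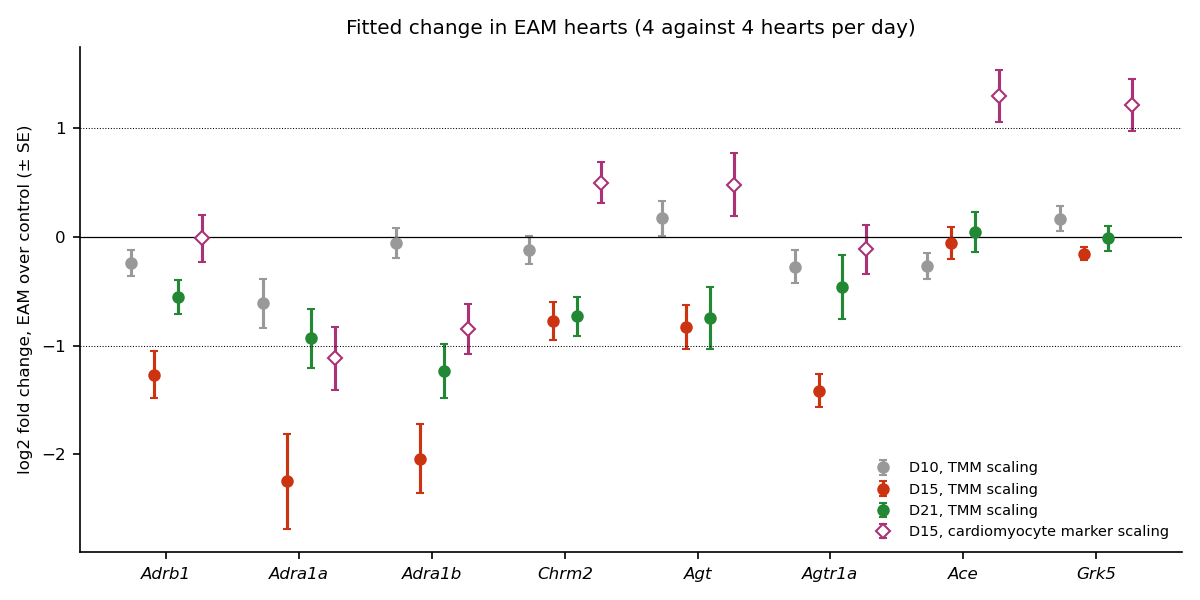
Fitted log2 fold change of EAM over control (± SE) for each gene at D10 (grey), D15 (red) and D21 (green) with TMM scaling, and at D15 with scaling to 15 cardiomyocyte markers (open diamonds), and dotted lines at 2-fold. With TMM scaling Adra1a and Adra1b are lowest at D15 (-2.25 and -2.04), and with marker scaling Adrb1 lies at -0.01 while Ace and Grk5 lie above 1.

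The order of the D15 EAM hearts was the same for Adrb1, Adra1a, Adra1b, Chrm2 and Agtr1a at both ends: replicate 2 lowest and replicate 3 highest. The cardiomyocyte marker sum had the same ends, at 14899 CPM in replicate 2, 21509 in replicate 1, 23219 in replicate 4 and 35774 in replicate 3, against 54039.8 to 61953 CPM in the D15 controls. A scaling that fixes the geometric mean of the 15 cardiomyocyte markers raised the median change of all genes at D15 by 1.37 (log2). Under it 64.7% of genes were called higher and 0.758% lower, and 2 of the 8 genes were called higher and 1 lower. Adra1a was the one called lower, at -1.12 ± 0.29 (log2, SE, adjusted p = 0.0020). Adra1b was at -0.85 ± 0.23 (adjusted p = 0.0027), under 2-fold. Adrb1 was at -0.01 ± 0.21 (adjusted p = 0.95) and Agtr1a at -0.12 ± 0.22 (adjusted p = 0.63). Chrm2 (0.50, adjusted p = 0.023) and Agt (0.48, adjusted p = 0.13) turned positive, and Ace (1.29, adjusted p = 0.00012) and Grk5 (1.21, adjusted p = 0.00018) were called higher.

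The same scaling was also written as a ratio for each heart, which is not separate evidence. The log2 ratio of each gene to the cardiomyocyte markers of its own heart was compared between 4 EAM and 4 control hearts with a two-sided exact permutation test, whose smallest p is 0.0286. None of the 24 tests passed 0.05 after adjustment over them, the smallest adjusted p being 0.0571. At D15 the ratio of Adrb1 was -6.46 ± 0.13 in EAM hearts and -6.46 ± 0.19 in controls (SD, n = 4, exact p = 1.0). The ratios of Adra1a and Adra1b were lower in all 4 EAM hearts, by differences of -1.19 and -0.86 (exact p = 0.0286 each, adjusted 0.0571). Those of Chrm2, Ace and Grk5 were higher in all 4 EAM hearts, by 0.50, 1.28 and 1.16 (exact p = 0.0286 each, adjusted 0.0571). Under the marker scaling 64.7% of all genes were called higher at D15 and 0.758% lower. The share of all genes whose ratios did not overlap was not counted on any day. At D21 the ratio of Chrm2 was lower in all 4 EAM hearts, by a difference of -0.39, as were those of Adrb1 (-0.21), Adra1a (-0.66), Adra1b (-0.94) and Agt (-0.45), with exact p = 0.0286 and adjusted p = 0.0571 each. With the D21 hearts paired by replicate number, an alternative added later, the exact p of each of these 5 was 0.125, the smallest that 4 pairs allow. With the median marker in place of the geometric mean the D21 difference of Adrb1 was 0.07. At D10 the ratio of Adra1a was lower (-0.39) and that of Grk5 higher (0.46) in all 4 EAM hearts, with the same exact p. Endothelial markers fell less than cardiomyocyte markers at D15 (median -0.70, 2 of 8 called lower), and the part of either in these values was not tested.

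**Figure D3:**
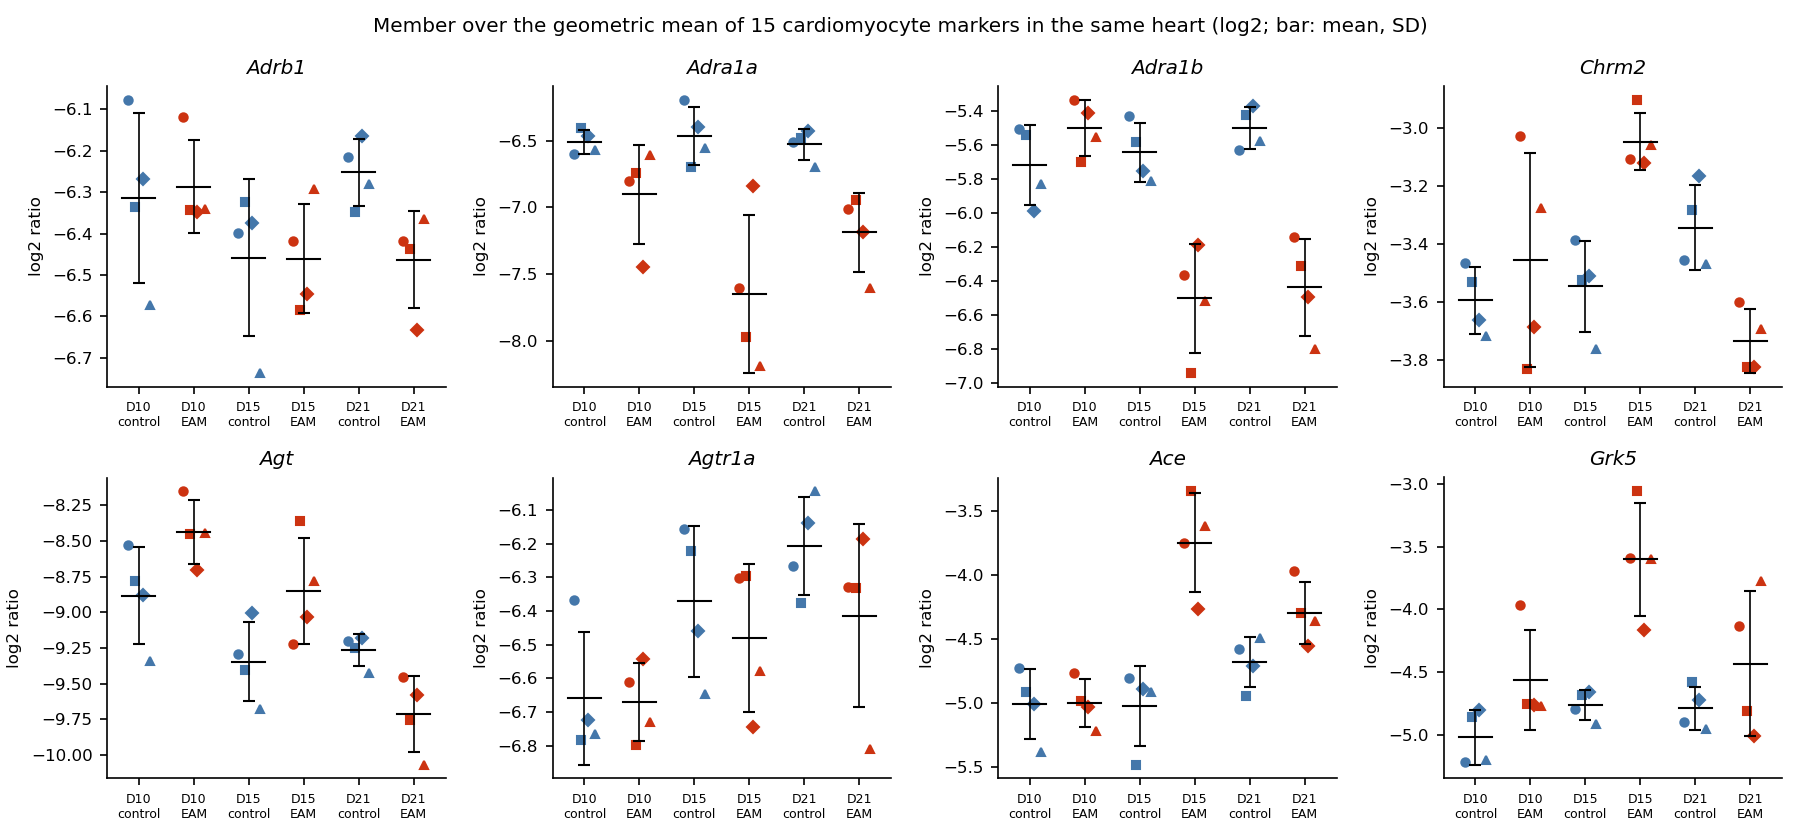
Log2 ratio of each gene to the geometric mean of 15 cardiomyocyte markers in the same heart, for control (blue) and EAM (red) hearts, with the mean and SD of each group (n = 4). At D15 the Adrb1 groups overlap, Adra1a and Adra1b lie lower in EAM hearts, and Chrm2, Ace and Grk5 lie higher.

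At D21 no gene of the 8 was called, while 1.16% of 15266 genes were called lower and 4.13% higher. In 4 of the 8 genes every EAM heart lay below every control, as in 18.7% of all genes. The counts over all genes rested on single hearts: no gene was called without control replicate 1, 2 or 3 (5633 to 5910 at an unadjusted p under 0.05), 4 were higher and 10 lower without EAM replicate 1, and 1477 higher and 529 lower without EAM replicate 3. By limma-voom 80 were higher and 135 lower, and by DESeq2 1364 and 369. Adra1b came nearest to the limits. It was at 27.8, 33.6, 37.6 and 14.1 CPM in EAM hearts and at 62.3, 71.7, 71.2 and 62.6 CPM in controls, with -1.23 ± 0.25 (log2, SE, adjusted p = 0.0104), 42.6% of control. DESeq2 called it (adjusted p = 4.9e-05), as did the fit of all 24 hearts (0.0016), total-count scaling (0.0098), no filter on low counts (0.0085), and edgeR without EAM replicate 3 (0.0034) or replicate 4 (0.0054). With the replicate number as a block, edgeR gave -1.30 with an adjusted p of 0.01002, just above the limit. Nor was it called by limma-voom (0.013), with relative log expression size factors (0.0105), under the cardiomyocyte marker scaling (-0.92, 0.019), or without any of the other 6 hearts (0.019 to 0.039).

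The other adrenergic receptors were intermediate at D21. Adrb1 was at 22.9, 30.8, 34.1 and 19.2 CPM in EAM hearts and at 41.5, 37.6, 41.0 and 38.4 CPM in controls (-0.55 ± 0.16, log2, SE, adjusted p = 0.031). Adra1a was at 15.1, 21.6, 23.3 and 8.05 CPM against 33.8, 34.3, 34.1 and 28.8 CPM (-0.93 ± 0.27, adjusted p = 0.033). Neither pair of groups overlapped. Chrm2, too, was lower in each EAM heart, at 162, 188, 240 and 123 CPM against 281, 316, 329 and 270 CPM (-0.73 ± 0.18, adjusted p = 0.018).

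In Agtr1a the D21 EAM hearts ranged more widely than in any other group, from 14.1 CPM in replicate 4 over 24.4 and 33.1 to 46.6 CPM in replicate 3, which exceeded the 4 controls at 37.0 to 45.3 CPM (-0.46 ± 0.29, log2, SE, adjusted p = 0.24). Agt was at 2.71, 3.0, 4.34 and 1.38 CPM against 5.13, 4.94, 4.99 and 4.25 CPM (-0.75 ± 0.29, adjusted p = 0.072). Ace (0.04 ± 0.18, adjusted p = 0.87) and Grk5 (-0.02 ± 0.11, adjusted p = 0.92) had fitted changes close to 0. EAM replicate 4, lowest for 7 of the 8 genes, had the highest leukocyte marker sum (2231 CPM) and the lowest cardiomyocyte sum (28845 CPM) of the D21 EAM hearts, and replicate 3, highest for 7 of the 8, had the reverse (470 and 62319 CPM).

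The D21 EAM libraries also differed from their controls in atrial transcripts. The 6 atrial markers summed to 70.8 to 195 CPM in D21 EAM hearts and to 1793 to 2812 CPM in D21 controls. Sln was at 0.0986 to 2.27 CPM and Myl7 at 0.497 to 10.8 CPM in those EAM hearts, against 136 to 221 and 389 to 613 CPM. Atrial transcripts were also low in the D10 controls (227 to 523 CPM in sum, against 603 to 2069 CPM in the D10 EAM hearts) and in D15 control replicate 4 (256 CPM). The groups did not overlap in atrial transcripts at D10 and D21 and overlapped at D15. The 4 D21 EAM libraries carry a library code of their own, which the other 20 do not share, and code and group cannot be told apart there. The M2 receptor and its channel are richer in atrium. Kcnj3, a subunit of that channel, was at 133 to 198 CPM in the 7 atrium-rich control hearts of D15 and D21 and at 83.2 to 96.5 CPM in the 5 control hearts with few atrial transcripts. Chrm2 was at 270 to 329 and 247 to 272 CPM in the same hearts.

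Set against the D10 controls, which were poorer in atrial transcripts than the D21 controls, the D21 EAM hearts gave other values. The atrial marker sums of the D10 controls were still above those of the D21 EAM hearts, at 227 to 523 against 70.8 to 195 CPM. Sln, Myl7 and Myl4 did not overlap between these groups, and Nppa, Bmp10 and Nr2f2 did. In that comparison, added after the atrial transcripts were seen, 1.35% of genes were called lower, and 2 of the 8: Adra1b (-1.12, adjusted p = 0.0040) and Agt (-1.25, adjusted p = 0.000837). Chrm2 was at -0.57 (adjusted p = 0.015), Adrb1 at -0.59 (0.016), Adra1a at -1.05 (0.026) and Agtr1a at -0.11 (0.73). The comparison is between days and between library codes, so that day, treatment and code cannot be told apart in it. How far atrial tissue bears on the D21 values was not tested.

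**Figure D4:**
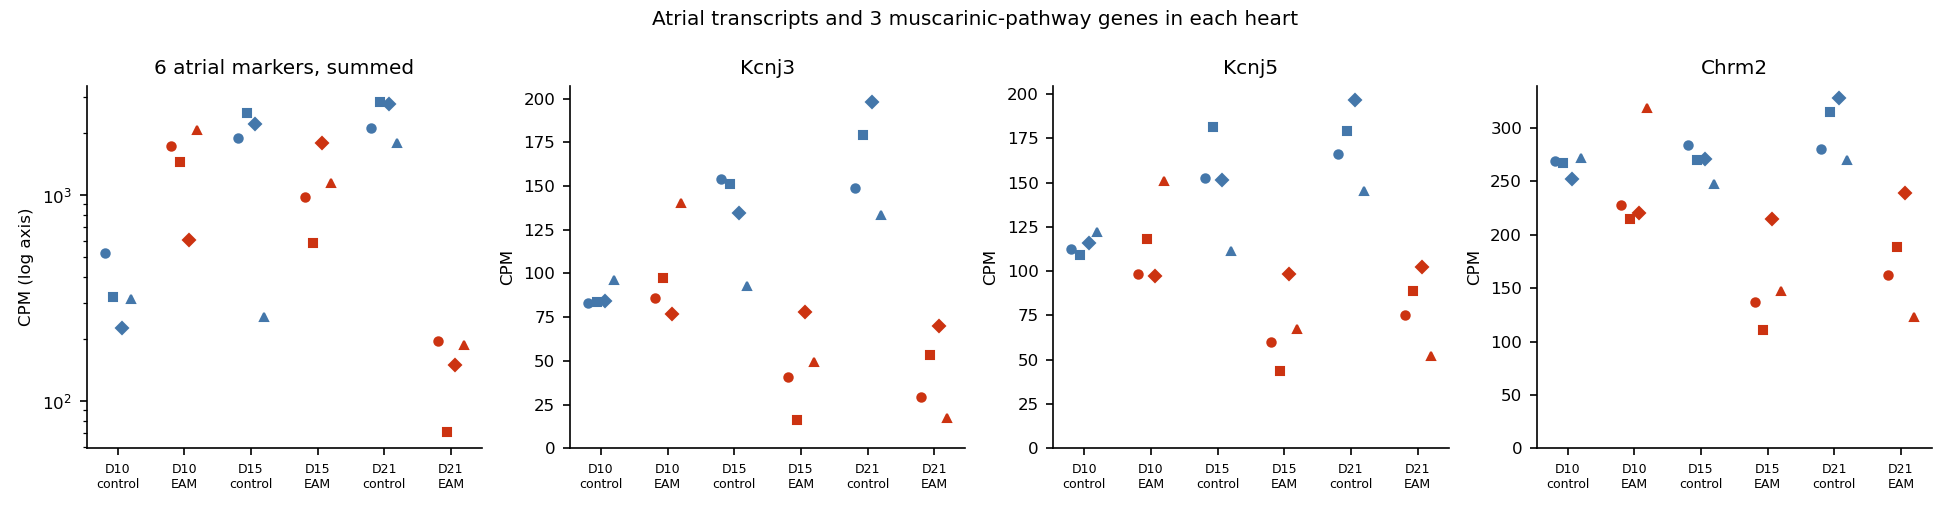
Summed CPM of 6 atrial markers (log axis) and the CPM of Kcnj3, Kcnj5 and Chrm2 (axes from 0) in each control (blue) and EAM (red) heart. The D21 EAM hearts hold the fewest atrial transcripts, the D10 controls and 1 D15 control hold few, and Kcnj3 and Kcnj5 are low in those controls as well.

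The EAM effect differed between D10 and D15 for 3 of the 8 genes, tested as a contrast in a fit of all 24 hearts in which 7.35% of genes were called lower and 5.38% higher. These were Adra1b (-2.03 ± 0.39, log2, SE, adjusted p = 0.0019), Adrb1 (-1.07 ± 0.27, adjusted p = 0.0042) and Agtr1a (-1.19 ± 0.34, adjusted p = 0.0081). Adra1b was called whichever of the 16 hearts was left out, Adrb1 in 14 of 16 such fits and Agtr1a in 2 of 16. Without D10 EAM replicate 2 or D15 EAM replicate 2, 1 of the 8 was called (4.7% and 3.82% of all genes called lower), and without D10 EAM replicate 1 or D15 EAM replicate 3, 5 were (10.7% and 10.5%). With total-count scaling 1 of the 8, Adra1b, was called, and 5.09% of all genes. In the same contrast the cardiomyocyte markers had a median of -1.18, with 7 of 15 called lower. The atrial markers were at -2.71 (3 of 6 called lower) and the leukocyte markers at 2.41 (6 of 8 called higher). Under the cardiomyocyte marker scaling, added later for this contrast, 0.362% of genes were called lower and 31.9% higher. Adra1b was still called lower (-1.06, adjusted p = 0.0054) and Ace was called higher (1.29, 0.0054), while Adrb1 (-0.03, 0.88) and Agtr1a (-0.10, 0.70) were not called. Adra1a changed by a similar amount (-1.68 ± 0.52) with an adjusted p of 0.013. Between D15 and D21, where 2.74% of genes were called higher and 0.919% lower, no gene of the 8 was called, with Agtr1a at 0.98 ± 0.33 (adjusted p = 0.034), Adrb1 at 0.74 ± 0.27 (0.045) and Adra1a at 1.33 ± 0.52 (0.059). Without D15 EAM replicate 3 or D21 EAM replicate 4, 1 of the 8 was called higher, and the shares of all genes called in those fits are not given here. Between D10 and D21 none was called, against 0.0735% of genes higher and 0.735% lower. The atrial markers had a median of -6.15 in D21 minus D15 (4 of 6 called lower) and -8.86 in D21 minus D10 (6 of 6). The part of the marker lists in these contrasts was not tested.

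Relative to a related gene in the same heart, Grk5 and Adra1a were also compared. The ratio of Grk5 to Grk2, the other main receptor kinase of the heart, was lower in all 4 EAM hearts, with differences of -0.92 at D15 and -0.42 at D21 (exact p = 0.0286 each). Grk2 was higher by less than 2-fold at D15 (0.77 ± 0.06, adjusted p = 4.1e-06). The ratio of Adra1a to Adra1b was higher in all 4 D21 EAM hearts by 0.28 (exact p = 0.0286), while at D10 and D15 the difference had the other sign (-0.61 and -0.33) and the groups overlapped (exact p = 0.0857 and 0.229). Over all 12 ratio tests run the smallest adjusted p was 0.0571, so that none passed 0.05. With the D21 hearts paired by number, the exact p of the D21 ratios of Grk5 to Grk2 and of Adra1a to Adra1b was 0.125 each.

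Of the wider pathway, 107 genes in 6 lists were looked up. At D15, 92 passed the filter, and 20 were called lower and 18 higher, with a median log2 change of -0.09, where 12.9% of all genes tested were called lower and 18.1% higher. The 18 are 19.6% of the 92, near the share of all genes, and the 20 are 21.7%. Catecholamine handling was the list with the lowest median (-1.24), with 5 of 8 tested genes called lower and none higher with TMM scaling, and none lower under the marker scaling. They were Pnmt, which makes adrenaline (-2.47 ± 0.39, adjusted p = 0.00028), the extraneuronal transporter gene Slc22a3 (-2.19 ± 0.27, 7.5e-05), Dbh, which makes noradrenaline (-2.01 ± 0.28, 0.00013), Maob (-1.24 ± 0.26, 0.0018) and Ddc (-1.24 ± 0.19, 0.00026). Dbh was at 3.20, 1.47, 3.88 and 3.09 CPM in EAM hearts and at 14.1, 14.6, 9.94 and 9.36 CPM in controls. The neuron and Schwann cell markers summed to 19.8 to 23.6 CPM in the D15 EAM hearts and to 26.6 to 30.2 CPM in the controls, without overlap, and their part in the catecholamine values was not tested. Th, the first enzyme of that path, had 0 to 11 reads per heart and was not tested.

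Among the other adrenergic receptors at D15, 2 of 5 tested were called lower and 1 higher, against 12.9% and 18.1% of all genes. Adra1d, the third α1 receptor, was at 2.37, 2.70, 3.63 and 3.09 CPM in EAM hearts and at 7.92, 9.33, 7.25 and 8.07 CPM in controls (-1.43 ± 0.15, adjusted p = 2.5e-05), so that all 3 α1 receptor genes were called lower with TMM scaling, while Adra1d was at -0.11 under the marker scaling. Adra2b fell to 0.116 to 0.548 CPM from 0.649 to 1.83 CPM (-1.87 ± 0.46, adjusted p = 0.0042). Adra2a rose from at most 0.059 CPM in D15 controls, with no read in 2 of them, to 0.998, 1.26, 0.464 and 1.0 CPM (adjusted p = 9.5e-05). In the controls that is below the level of 3 reads, and no fold is given.

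Of the other muscarinic and acetylcholine genes at D15, 3 of 5 tested were called lower and none higher with TMM scaling, against 12.9% and 18.1% of all genes. Under the marker scaling none of them was called lower. Kcnj3 was at 40.6, 16.1, 78.0 and 49.3 CPM in EAM hearts and at 154, 151, 135 and 92.9 CPM in controls (-1.50 ± 0.39, adjusted p = 0.0063). Kcnj5, its partner, changed by -1.11 ± 0.23 (0.0019) and Bche, a cholinesterase, by -1.46 ± 0.14 (1.7e-05). Of the remaining muscarinic receptors, Chrm3 had 4 to 70 reads in a heart and was tested but not called, and Chrm1, Chrm4 and Chrm5 had at most 5 reads, and Chat, the enzyme that makes acetylcholine, at most 4. The atrial markers had no called member at D15 (median -0.57), with sums of 582 to 1792 CPM in EAM hearts and 256 to 2506 CPM in controls.

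Of the other renin-angiotensin genes at D15, 3 of 13 tested were called higher (23.1%) and 1 lower (7.69%), against 18.1% and 12.9% of all genes. Anpep, an aminopeptidase also carried by myeloid cells, rose to 160 to 303 CPM from 18.2 to 22.7 CPM (3.61 ± 0.20, adjusted p = 4.7e-07). Atp6ap2, the (pro)renin receptor gene, changed by 1.77 ± 0.14 (4.5e-06) and Prcp, a carboxypeptidase, by 1.75 ± 0.16 (1.0e-05). Renin itself was close to absent from the libraries: Ren1 had 0 reads in 15 of 24 hearts and at most 4 reads in the rest. Agtr1b had at most 1 read and Agtr2 at most 5, so that Agtr1a made up nearly all angiotensin receptor reads.

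**Figure D5:**
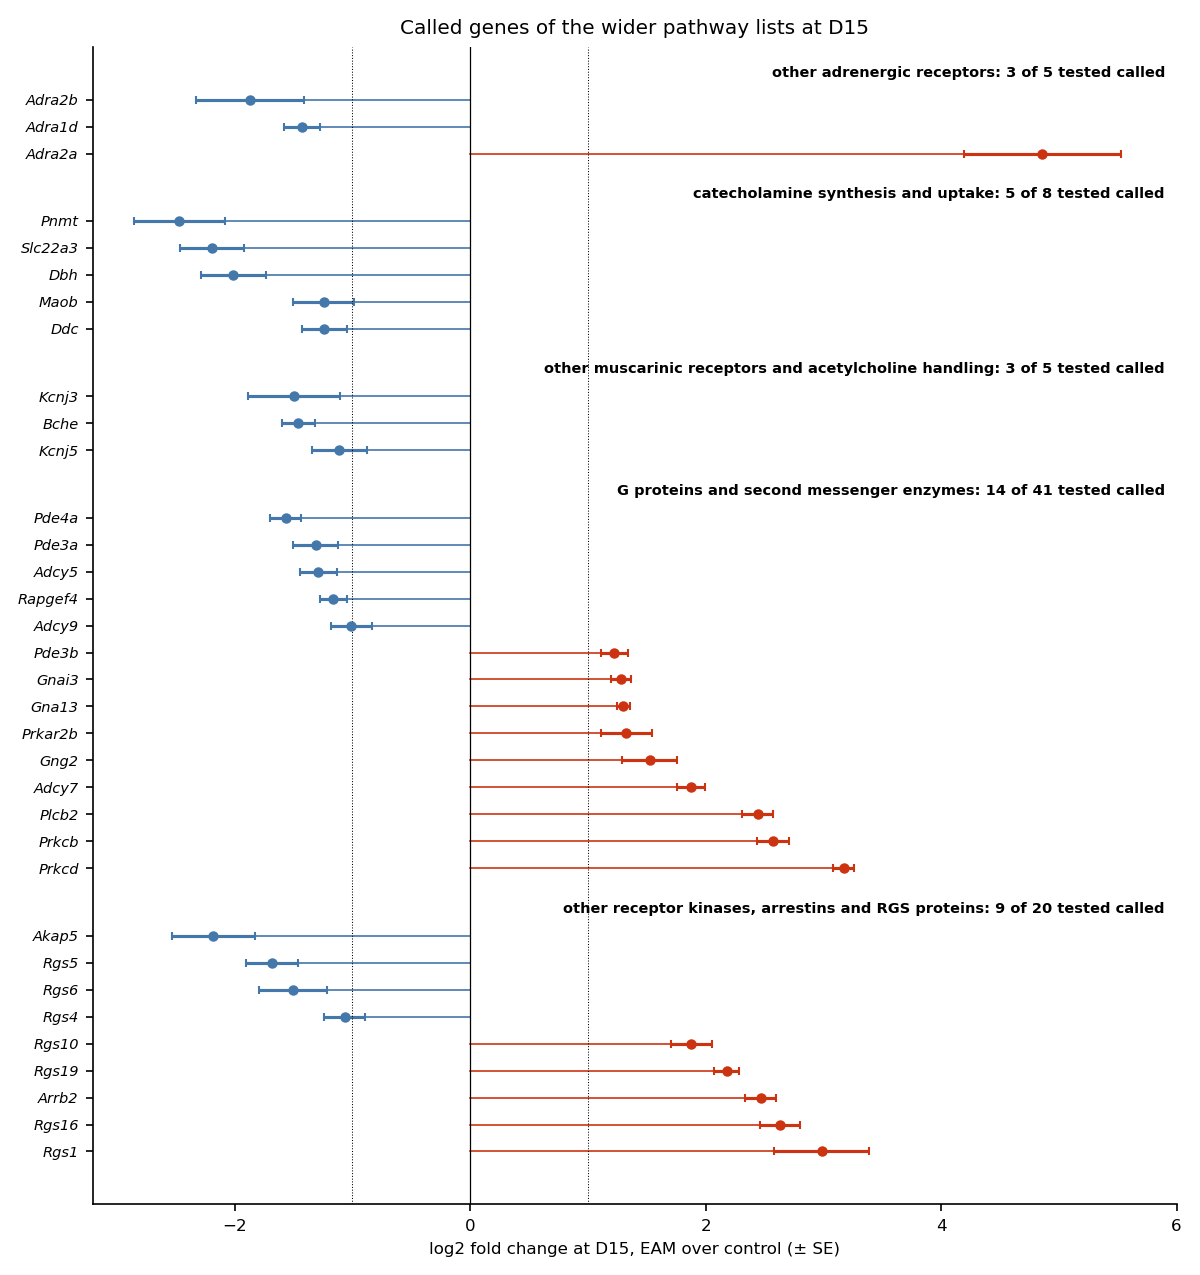
Fitted log2 fold change at D15 (EAM over control, ± SE) of the called genes of 5 wider pathway lists, without the renin-angiotensin list, blue where lower and red where higher, with dotted lines at 2-fold. Called genes of catecholamine and acetylcholine handling lie to the left of 0, and the other 3 lists hold both directions.

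Downstream of the receptors the D15 changes went both ways. Of 41 G proteins and second messenger enzymes, 9 were called higher (22.0%) and 5 lower (12.2%), with a median of -0.11, near the shares of all genes given above. Lower were Adcy5 (-1.29 ± 0.16, adjusted p = 6.4e-05) and Adcy9 (-1.01 ± 0.18, 0.00058), both adenylyl cyclases, the phosphodiesterases Pde3a (-1.31 ± 0.19, 0.00017) and Pde4a (-1.57 ± 0.13, 6.5e-06), and Rapgef4, a cyclic AMP sensor (-1.16 ± 0.11, 1.6e-05). Higher were Prkcd (3.17 ± 0.09, 1.3e-08), Prkcb, Plcb2, Adcy7, Gng2, Prkar2b, Gna13, Gnai3 and Pde3b (1.22 to 2.57). Plcb2, Prkcb and Adcy7 are known from blood cells, and the 8 leukocyte markers rose beside them by 3.82 in the median; their part in these values was not tested. Of 20 receptor kinases, arrestins and RGS proteins, which switch receptors or G proteins off, or their anchors, 4 were called lower (Akap5 -2.18 ± 0.35, Rgs5 -1.68 ± 0.22, Rgs6 -1.50 ± 0.29 and Rgs4 -1.07 ± 0.17) and 5 higher (Rgs1 2.98 ± 0.40, Rgs16, Arrb2, Rgs19 and Rgs10). Those 4 are 20% of the list and those 5 are 25%, against 12.9% of all genes called lower and 18.1% higher. Under the cardiomyocyte marker scaling at D15 none of the 20 wider genes that fell was called lower.

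At D21, 3 of the 91 wider genes tested were called higher and 5 lower, where 4.13% of all genes were called higher and 1.16% lower. Higher were Prkcd (2.01 ± 0.37, adjusted p = 0.0081), Arrb2, the β-arrestin 2 gene (1.79 ± 0.26, 0.0055), and Rgs10 (1.78 ± 0.34, 0.0091). Lower were Kcnj3 (-1.95 ± 0.38, 0.0093), Kcnj5 (-1.10 ± 0.19, 0.0069), Ddc (-1.69 ± 0.33, 0.00995), Gnao1, a Go subunit (-1.23 ± 0.16, 0.0047), and Pde3a (-1.07 ± 0.21, 0.0096). Against the D10 controls Ddc was called (-1.68, adjusted p = 0.00038), and Kcnj3 (-1.04, 0.029), Kcnj5 (-0.53, 0.050), Gnao1 (-0.42, 0.12) and Pde3a (-0.84, 0.0048) were not. The D21 counts rested on single hearts: without EAM replicate 3 they were 11 higher and 13 lower, without EAM replicate 4 they were 2 higher and 4 lower, and without any of the other 6 hearts they were 0 and 0.

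The genes with the profile most like each of the 8 were found by the root mean square difference of mean-centred log2(CPM + 1) over the 24 hearts, among 14215 genes. Adrb1 was followed most closely by Fgf1 (0.118), Atpaf1 (0.129) and Atp2a2 (0.129), the sarcoplasmic reticulum calcium pump and 1 of the cardiomyocyte markers, where its own spread was 0.564. Agtr1a was nearest to Gal3st2c (0.145), Adcy5 (0.152) and Lrrc1 (0.162), with an own spread of 0.580. Chrm2 was nearest to Rabgap1l (0.117), Dsg2 (0.123) and Usp28 (0.138), with 0.429. Adra1a was nearest to Gm17281 (0.194), Efcab2 (0.200) and Dnajc28 (0.202), with 0.946, and Adra1b to Art4 (0.190), Slc25a42 (0.197) and Adhfe1 (0.205), with 0.903. Agt was nearest to Plin4 (0.216), Slc27a1 (0.218) and Galnt17 (0.234), with 0.532. Ace (Matn2 0.193, Naalad2 0.195, Cygb 0.198; own spread 0.285) and Grk5 (Mcph1 0.112, Mark4 0.119, Nsmce3 0.121; own spread 0.142) varied little, so that these differences are large against their own spread.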

How the data were processed

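Pieces of 24 hearts were sequenced as directional read pairs. Per the labels and methods, the authors aligned to GRCm38 with HISAT2 2.0.4, removed duplicates with Picard and deposited raw counts per Ensembl gene from featureCounts. Its strand setting and version are not given in the sources used here. Groups and replicate numbers came from the sample labels. The 92 spike-in rows held 0 reads and were left out.

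The 8 genes, the lists and the rule for named genes (the 8 genes, called genes of the wider lists up to 12 per direction and day, ratio partners, and 3 nearest profiles per gene) were chosen with earlier results of these data known. Outside that rule, called genes beyond 12 per direction are named at D15, as are some genes not called or with few reads. For each day, the genes that reached 10 reads in 4 or more hearts were tested with edgeR 4.0.16 (R 4.3.3; TMM, quasi-likelihood test), with limits of FDR 0.01 and 2-fold. Contrasts between days used a fit of all 24 hearts. The tests were tried on simulated data. Tables, exact permutation tests and plots used Python 3.11.15, scipy 1.17.1 and matplotlib 3.10.9. Ratios used log2(CPM + 0.1). Results of some genes in the lists and ratios are not reported here. Alternatives were DESeq2 1.42.0, limma-voom (limma 3.58.1), other scalings, filters and limits, the 24-heart fit, a replicate block, and leaving out each heart. A level of 3 reads is 0.105 to 0.200 CPM, TMM-scaled, in these libraries, which covers counting error only. No label gives the meaning of the replicate numbers. Deviations of same-numbered D21 hearts from their group means correlated at 0.101, 0.171, 0.307 and 0.248. On that alone, D21 tests paired by number were added as an alternative. At D10 the values were 0.365, -0.079, -0.093 and 0.407, and at D15 0.043, -0.089, -0.031 and -0.105. Differently numbered hearts were not correlated for comparison, so the values do not show that the numbers pair hearts on any day.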

Additional observations from a re-analysis of the deposited data

Results flagged for a closer look

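In 3 of the 48 sets of 4 hearts, a heart stood apart from the other hearts of its group by Dixon's criterion, which chance alone meets in about 1 of 20 sets. Adra1a was at 28.8 CPM in D21 control replicate 4 and at 33.8, 34.1 and 34.3 CPM in the other controls of that day. Chrm2 was at 319 CPM in D10 EAM replicate 4 and at 215, 221 and 228 CPM in the other hearts of the group; the same heart had the highest atrial marker sum of the D10 hearts (2069 CPM). Ace was at 69.6 CPM in D15 control replicate 2 and at 104, 106 and 111 CPM in the others.

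The EAM effect on 3 receptor genes differed between D15 and D10 in the contrast of the 24-heart fit: Adra1b by -2.03, Agtr1a by -1.19 and Adrb1 by -1.07 on the log2 scale (edgeR, adjusted p = 0.0019, 0.0081 and 0.0042). In each the D15 effect was the lower, in a contrast that called 7.35% of all genes lower and 5.38% higher. With 1 heart left out, Adra1b was called in 16 of 16 fits, Adrb1 in 14 and Agtr1a in 2. Total-count scaling left 1 of the 3, Adra1b, called. Under the cardiomyocyte marker scaling Adra1b was at -1.06 and still called, and Agtr1a (-0.10) and Adrb1 (-0.03) were not.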

How the results depend on the processing

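At D15 the 4 called receptor genes were called in every fit with 1 heart left out. Wider genes called lower ranged from 16 to 24 and higher from 17 to 19. Scaling to cardiomyocyte markers changed most: at D15, 2 of the 8 genes were called higher and 1 lower, and 53 wider genes higher and 0 lower; fitted changes turned positive for Chrm2 (0.50), Agt (0.48), Ace (1.29) and Grk5 (1.21), at D10 for Adrb1 (0.018), Adra1b (0.21) and Chrm2 (0.17), and at D21 for Grk5 (0.43). Between days, an addition made after the results were seen, it left 1 of the 8 called higher and 1 lower in D15 minus D10 (wider: 36 higher, 0 lower), turned Chrm2 (0.32), Agt (0.050) and Grk5 (0.72) there, and in D21 minus D15 turned Adrb1 (-0.20), Adra1b (-0.076), Chrm2 (-0.89), Agt (-0.93), Agtr1a (-0.079), Ace (-0.90) and Grk5 (-0.78), with 16 wider genes lower, and 5 lower in D21 minus D10. The cause was not tested beyond the marker values given above. With no fold limit, 33 wider genes were higher and 35 lower at D15, 8 lower at D21, 17 higher in D15 minus D10, and 1 higher and 5 lower in D21 minus D15. Total-count scaling moved the D15 median by 0.15 and gave Ace 0.089 at D15. It left 1 of the 3 genes called in D15 minus D10, where it called 5.09% of all genes lower. In D21 minus D15 it turned Chrm2 (-0.088), Agt (-0.062) and Ace (-0.039), and between D21 and D10 controls it gave Adrb1 0.036. In D15 minus D10 limma-voom called 5 of the 8 genes lower, and the share of all genes it called is not given here.

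At D21, 1 of the 8 genes was called lower with DESeq2, total counts, no filter, the 24-heart fit or an FDR of 0.05, and 2 against D10 controls, where Grk5 was at 0.11. Against D10 controls 1.35% of all genes were called lower. The genes that DESeq2 called at D21 are counted above, and the shares of all genes under the other settings are not given here. Wider genes called higher at D21 numbered 9 (DESeq2), 1 (limma-voom), 0 (marker scaling), 5 (no filter), 10 (24-heart fit), 14 (D10 controls) and 9 (FDR 0.05); those called lower numbered 10, 1 and 0 under the first 3, then 13 (24-heart fit), 2 (D10 controls) and 12 (FDR 0.05). Leaving out 1 heart gave 0 to 1 of the 8, 0 to 11 wider genes higher and 0 to 13 lower. The replicate block changed no call of the 8 genes; Adra1b at D21 was at -1.30. With the replicate block, wider genes called were 0 lower in D21 minus D15 and 1 higher in D21 minus D10. Wider genes called lower in D21 minus D15 were 2 with DESeq2 and 0 with limma-voom, and in D21 minus D10 5 and 1. In controls 1 wider gene was called lower by DESeq2 in D15 versus D10, and 1 by DESeq2 or the 12 controls alone in D21 versus D10.

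With 1 heart left out, the 8 genes called ranged from 1 to 5 lower in D15 minus D10 (wider: 6 to 15 higher, 6 to 16 lower) and 0 to 1 higher in D21 minus D15 (wider: 0 to 6 higher, 0 to 3 lower); in D21 minus D10 wider genes ranged from 0 to 1 higher and 1 to 4 lower, and in D15 versus D10 controls from 0 to 1 lower. Signs of values close to 0 turned: at D10 Adra1b (-0.14 to 0.049), at D15 Ace (-0.18 to 0.024), at D21 Ace (-0.052 to 0.20) and Grk5 (-0.088 to 0.054); in D15 versus D10 controls Ace (-0.10 to 0.099), Adra1a (-0.049 to 0.096), Adra1b (-0.050 to 0.077) and Chrm2 (-0.014 to 0.052); Adrb1 in D21 versus D10 controls (-0.055 to 0.024) and Agt in D21 versus D15 controls (-0.053 to 0.14); Agtr1a in D21 minus D10 (-0.52 to 0.021), and Agt (-0.16 to 0.33) and Chrm2 (-0.11 to 0.28) in D21 minus D15. Ratios to cardiomyocyte markers turned for Adrb1 at D15 with a pseudocount of 0.5 (0.024) or the median marker (0.018), and with the median marker for Adrb1 at D21 (0.071) and Agtr1a at D10 (0.0059) and D21 (0.075). Two-sided exact tests with 1 heart left out, with the smaller tail doubled, have a smallest p of 0.0571 and were read as values. Low counts limit Agt, Ren1 and the other receptors near 0.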

Other observations

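Adrb3, the β3-adrenergic receptor gene, known from fat, was at 0.350 to 2.5 CPM in D21 controls and at 0 to 0.0668 CPM in D21 EAM hearts. Its EAM effect at D21 was called lower than at D10 (adjusted p = 0.0048 in edgeR) and than at D15 (0.0075), and no fold is given because the D21 EAM hearts are under the level of 3 reads. The adipocyte markers had a median log2 fold change of -3.92 at D21 (1 of 4 tested called lower). Their sums overlapped, at 253 to 520 CPM in D21 EAM hearts and 373 to 450 CPM in D21 controls. The atrial markers had a median of -7.02 (5 of 6 called lower), and their sums were lower in all 4 D21 EAM hearts. The part of either marker list in the Adrb3 values was not tested.

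Chrm3, the M3 muscarinic receptor gene, was at 0.267 to 1.28 CPM in D21 EAM hearts and at 1.34 to 2.64 CPM in D21 controls, and Mas1, the receptor for angiotensin-(1-7), at 0.0701 to 0.295 CPM in D15 EAM hearts and 0.530 to 0.937 CPM in D15 controls. The groups did not overlap in either, at levels of few reads. Chrm3 at D21 had an adjusted p of 0.045 in edgeR and was not called, and Mas1 did not pass the filter on low counts at D15.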
